A study of Mus musculus with 6 samples.

Results

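The 8 genes described here encode the auxiliary alpha2delta and beta subunits of high-voltage-activated calcium channels: Cacna2d1, Cacna2d2, Cacna2d3 and Cacna2d4, and Cacnb1, Cacnb2, Cacnb3 and Cacnb4. They were chosen by gene name as the whole of both gene families, and all 8 were found among the 20040 entries of the deposited table. The families were selected on KO against WT values of these same libraries, in which the fall of Cacna2d1 was already known. Their KO against WT differences are therefore a description, and the adjusted p beside each only says where that gene stands in a fit over all genes. The study sequenced mRNA of cultured neurons taken from the cortex of C57BL/6 mice at embryonic day 18. The 3 KO libraries are labelled KDM6B KO and the 3 WT libraries are labelled wild type, and both groups share the strain, the tissue and the culture medium. Kdm6b encodes a demethylase that acts on methylated lysine 27 of histone H3. The sources used here state neither which part of the gene was deleted and in which cells, nor the days in culture, nor that each replicate was its own culture. A p-value below therefore reflects variation among these 6 libraries alone, and that variation may be technical.

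Voltage-gated calcium channels of the Cav1 and Cav2 type are built around a pore subunit from a Cacna1 gene, which opens on depolarization and lets calcium into the cell. Beta subunits are cytosolic proteins that bind a loop of the pore subunit, bring the channel to the membrane and shape its gating. Alpha2delta subunits are heavily glycosylated and sit on the outer face of the membrane, where they raise the number of channels at the surface and at presynaptic terminals. Those made from Cacna2d1 and Cacna2d2 bind gabapentin and pregabalin, drugs used for neuropathic pain and epilepsy.

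Values are in TPM, a share of transcripts corrected for gene length that sums to 1000000 in each library, so levels can be compared between genes. Whole counts per library totalled at least 19761714 in the shallowest library and at least 23503660 in the deepest. For a gene of 1 kb, 1 count stood for 0.126 to 0.151 TPM. Kdm6b itself had 11.2, 11.1 and 12.0 TPM in KO replicates 1, 2 and 3, against 30.9, 30.3 and 30.7 TPM in WT replicates 1, 2 and 3. Its fall to 37.3% of the WT level (log2 fold change -1.39 ± 0.05 SE, limma adjusted p = 1.1e-05) goes with the labels of all 6 libraries. Uty, Kdm5d, Ddx3y and Eif2s3y, all on the Y chromosome, summed to between 0.149 and 0.754 TPM in KO and between 91.0 and 93.9 TPM in WT. Genotype and sex mix thus cannot be told apart in any comparison below. Markers of both main classes of cortical neurons were present: 7 excitatory markers summed to 1496.5 to 1578 TPM in KO and 2001 to 2054 TPM in WT, and 10 markers of GABAergic interneurons to 956 to 1037 TPM in KO and 1293 to 1336 TPM in WT. In bulk RNA, fewer cells of a type and less RNA per cell cannot be told apart.

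The promoters of the 2 genes that moved in opposite directions are shown first, since they are the members the results turn on. Each is the 250 bases upstream of the RefSeq transcription start, printed 5′ to 3′ on the gene's own strand, with every CG dinucleotide in capitals. The Cacna2d1 window is chr5:15934441-15934690 on the plus strand and the Cacna2d3 window is chr14:29721865-29722114 on the minus strand, both from RefSeq on GRCm38.p6.
Cacna2d1: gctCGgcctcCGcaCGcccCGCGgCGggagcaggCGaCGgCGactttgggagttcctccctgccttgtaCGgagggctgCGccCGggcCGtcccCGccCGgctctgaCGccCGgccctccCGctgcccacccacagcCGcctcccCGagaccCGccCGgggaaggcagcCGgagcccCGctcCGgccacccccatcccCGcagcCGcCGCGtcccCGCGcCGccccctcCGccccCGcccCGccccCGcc
Cacna2d3: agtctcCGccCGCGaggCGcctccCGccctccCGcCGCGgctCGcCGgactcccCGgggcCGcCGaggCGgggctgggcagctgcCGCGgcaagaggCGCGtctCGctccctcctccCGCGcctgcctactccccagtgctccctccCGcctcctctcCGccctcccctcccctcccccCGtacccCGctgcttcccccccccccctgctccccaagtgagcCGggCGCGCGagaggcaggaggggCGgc
Cacna2d1 held 36 CG dinucleotides at 82.4% G and C, and Cacna2d3 held 30 at 80.0%, where the median of 32536 windows of this length was 6 at 52.4%. The windows of both were thus rich in CG, with fewer CG in 97.4% and 94.0% of all windows. The GC box GGGCGG, searched on both strands, was found 6 times for Cacna2d1 and 4 times for Cacna2d3, and is present in 33.0% of all windows. The E-box CANNTG, the type of site that bHLH factors such as Neurod proteins bind, was found 0 times and 2 times in them, and stands in 66.2% of all windows. TGACG, the core of the cAMP response element, occurred 1 time upstream of Cacna2d1, is present in 17.9% of all windows and was not found in the Cacna2d3 window. Neither held TATAAA, which 12.3% of windows do. Of the 8 genes, 7 had a window in the RefSeq table, 12 windows in all. A CG-rich window was not particular to the pair: Cacna2d2 had 34 CG dinucleotides, Cacnb2 30, Cacnb1 26 and Cacnb3 23 in their richest window, and Cacnb4 37. Nor was the GC box, found 6 times in the richest window of Cacnb4 and 5 times in that of Cacnb1. The other windows of these genes held no GC box.

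Across the transcriptome, 14983 genes that averaged 0.5 TPM or more were compared between KO and WT by limma on log2 of TPM plus 0.5, and a gene passed at a Benjamini-Hochberg adjusted p below 0.05. By that rule 10.9% of all tested genes passed, made up of 4.15% of all tested genes higher and 6.74% lower in KO. Of the calls, 38.1% were thus higher (53.1% after median centring and 49.2% after quantile normalization). All 8 calcium channel genes entered the test. Of these, 2 were lower (Cacna2d1 and Cacnb1), 1 was higher (Cacna2d3) and 5 did not pass. The 3 KO values lay wholly on one side of the 3 WT values for 4 of the 8, and for 31.7% of all tested genes. The median log2 fold change was -0.08 over the 8 genes and -0.02 over all tested genes. As the families were taken up with this contrast known, nothing is read from these counts.

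**Figure D1:**
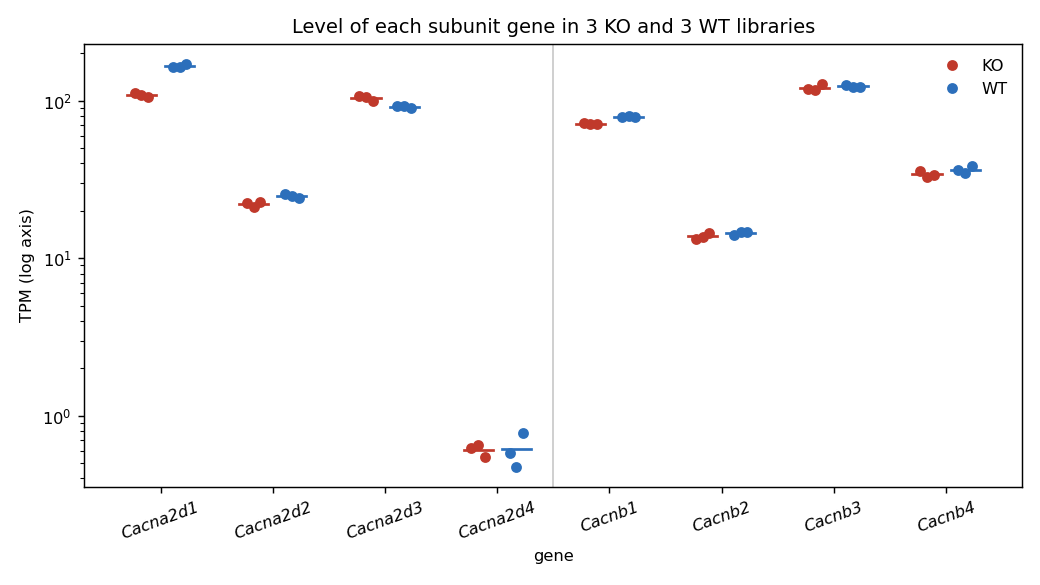
TPM on a log axis of the 4 alpha2delta genes (left of the line) and the 4 beta genes (right) in 3 KO libraries (red) and 3 WT libraries (blue); points are libraries and bars are group means. The groups stand furthest apart in Cacna2d1, at 105 to 111 TPM in KO and 163 to 171 TPM in WT.

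Cacna2d1 encodes the alpha2delta subunit that is the main target of gabapentin in the nervous system and a receptor for thrombospondins in synapse formation. It had 111.3, 108.2 and 105.4 TPM in KO replicates 1, 2 and 3, and 163.6, 163.3 and 171.0 TPM in WT replicates 1, 2 and 3. All 3 KO libraries lay far below all 3 WT libraries, with little spread in either group. The means were 108.3 ± 2.98 TPM in KO and 166.0 ± 4.34 TPM in WT (SD, n = 3 each), which puts KO at 65.2% of WT (log2 fold change -0.61 ± 0.03 SE, limma adjusted p = 6.2e-05). Between 5219 and 6409 counts per KO library and 8455 and 9613 per WT library stood behind these values. A larger absolute log2 fold change was found for 3.60% of all tested genes, and 119 genes that passed fell by more on the log2 scale. The gene is long, 439.8 kb at 15934691 to 16374511 on chromosome 5 (GRCm38, GENCODE M21), and none of the 3 genes annotated within it shares exon bases with it.

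Cacna2d3 encodes an alpha2delta subunit of brain that does not bind gabapentin with high affinity. It went the other way: 106.6, 105.5 and 100.4 TPM in KO replicates 1, 2 and 3, against 92.3, 92.95 and 90.5 TPM in WT replicates 1, 2 and 3. Every KO library was above every WT library, by a margin that was small beside the gap in Cacna2d1. The means of 104.2 ± 3.30 TPM in KO and 91.9 ± 1.28 TPM in WT (SD, n = 3 each) are 1.133-fold apart (log2 fold change 0.18 ± 0.03 SE, limma adjusted p = 0.010). This gene had the longest locus of the 8, 816.9 kb at 28904943 to 29721864 on chromosome 14 (GRCm38). Lrtm1, a protein-coding gene on the opposite strand inside it, was listed at a mean of 0.0184 TPM in KO and at 0 in WT and shares no exon bases with it.

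Cacna2d2, which encodes the other gabapentin-binding subunit and is mutated in ducky mice with ataxia and absence seizures, was lower by value and did not pass. It had 22.5, 21.15 and 22.7 TPM in KO replicates 1, 2 and 3, against 25.7, 24.9 and 24.3 TPM in WT replicates 1, 2 and 3. The groups did not overlap. KO stood at 88.6% of WT (log2 fold change -0.17 ± 0.05 SE, 95% interval -0.28 to -0.06, limma adjusted p = 0.057). The gene passed with a filter at 2 TPM (adjusted p = 0.0493) and in a limma voom fit of whole counts (adjusted p = 0.0132). An annotated antisense transcript, Gm17141, shares 82 exon bases with it, and no entry of that name was in the table.

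Cacna2d4, which encodes the alpha2delta subunit of photoreceptor synapses, was barely detected. It was at 0.625, 0.654 and 0.547 TPM in KO replicates 1, 2 and 3, and at 0.580, 0.474 and 0.781 TPM in WT replicates 1, 2 and 3, or 21 to 30 counts per KO library and 19 to 34 per WT library. The values of the groups overlapped fully. The 5 photoreceptor markers were also near 0, with a sum of 1.54 to 2.30 TPM in KO and 1.97 to 2.78 TPM in WT. On the log2 scale of TPM plus 0.5 the 95% interval spanned folds of 0.701 to 1.43, and a change within it was not detectable at this depth. That interval is too narrow for a fold of TPM itself at so low a level: the SE of the log2 fold change was 0.22 with the pseudocount of 0.5 and 0.36 with a pseudocount of 0.1. Lrtm2, a protein-coding gene on the opposite strand inside the locus, was far more abundant (21.2 TPM in KO and 27.3 TPM in WT, lower in KO) but shares no exon bases with Cacna2d4.

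Within the alpha2delta class the balance of transcripts moved, which a share within each library shows without regard to how libraries were scaled. Cacna2d1 made up 46.2%, 45.9% and 46.0% of the summed alpha2delta TPM in KO replicates 1, 2 and 3, against 58.0%, 58.0% and 59.7% in WT replicates 1, 2 and 3. Cacna2d3 held 44.2%, 44.8% and 43.9% in the KO libraries and 32.7%, 33.0% and 31.6% in the WT libraries. The pair was thus close to level in KO, at a Cacna2d1 to Cacna2d3 ratio of 1.03 to 1.05, and at 1.76 to 1.89 in WT. The share of Cacna2d2 was 8.98% to 9.90% in KO and 8.47% to 9.10% in WT, and Cacna2d4 stayed under 0.3% in each library. Shares of a class add to a fixed whole, so the fall of Cacna2d1 by itself raises the other shares. In TPM, Cacna2d3 was 1.133-fold higher in KO and Cacna2d2 was at 88.6% of WT. Summed over the class, alpha2delta transcripts came to 235.2 ± 6.05 TPM in KO and 283.5 ± 2.65 TPM in WT (SD, n = 3 each), 83.0% of the WT level. These shares rest on the same contrast as the choice of genes and were not tested.

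**Figure D2:**
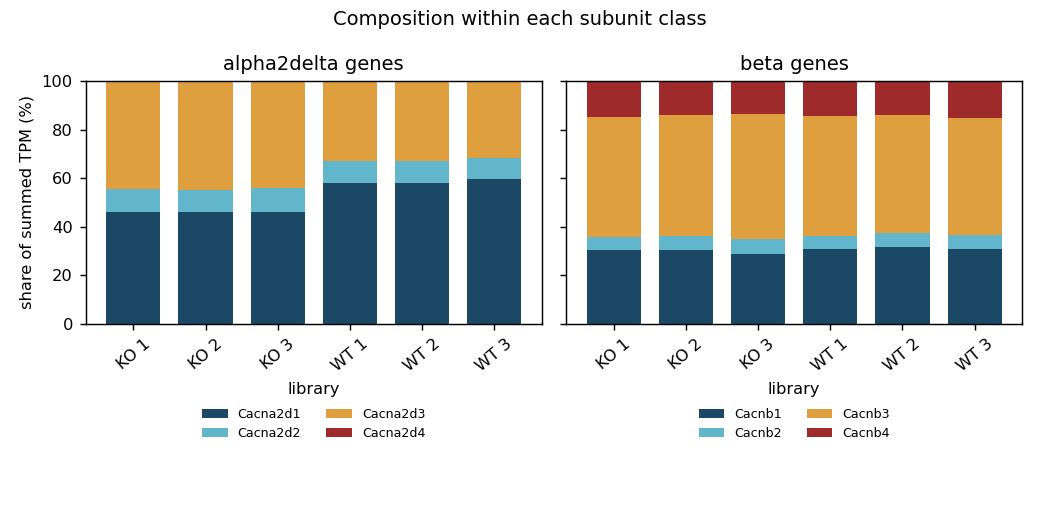
Stacked bars give each gene's percent of the summed TPM of its class in 3 KO and 3 WT libraries, alpha2delta genes on the left panel and beta genes on the right. The Cacna2d1 block is near 46% in each KO library and 58% to 60% in each WT library, while the beta blocks are of like height throughout.

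Among the beta genes only Cacnb1 passed, with a small difference. Cacnb1 encodes the beta subunit of the skeletal muscle channel and, through another splice form, a subunit found in brain. Its values were 72.4, 71.3 and 70.9 TPM in KO replicates 1, 2 and 3 and 78.4, 79.55 and 78.5 TPM in WT replicates 1, 2 and 3. The groups did not overlap and each was tight. KO was at 90.7% of WT (71.5 ± 0.771 TPM in KO, 78.8 ± 0.645 TPM in WT, SD, n = 3 each), with a log2 fold change of -0.14 ± 0.03 SE and a limma adjusted p of 0.014. The call was lost without KO replicate 2 (adjusted p = 0.0549), KO replicate 3 (0.0518), WT replicate 1 (0.0502) or WT replicate 2 (0.0503), at log2 fold changes of -0.15 to -0.13 over the 6 such fits. Gm11629, a transcript on the opposite strand, shares 80 exon bases with Cacnb1, and without a stated strand setting their reads cannot be told apart. The 5 muscle markers summed to 5.30 to 6.38 TPM in KO and 4.30 to 6.33 TPM in WT.

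Cacnb3, the most abundant beta gene here and a common partner of neuronal channels, had 118.1, 116.9 and 127.3 TPM in KO replicates 1, 2 and 3 and 125.7, 123.1 and 122.1 TPM in WT replicates 1, 2 and 3. KO replicate 3 was above all WT libraries and the other KO libraries were below them, so the groups overlapped. The log2 fold change was -0.03 ± 0.04 SE (95% interval -0.12 to 0.05, limma adjusted p = 0.61), a KO to WT fold between 0.921 and 1.03. Cacnb4, whose loss causes the lethargic phenotype of ataxia and seizures in mice, had 35.9, 32.95 and 33.8 TPM in KO replicates 1, 2 and 3 and 36.2, 35.0 and 38.5 TPM in WT replicates 1, 2 and 3. KO replicate 1 lay within the WT range and the other KO libraries below it (log2 fold change -0.10 ± 0.05 SE, limma adjusted p = 0.27). The transcript A430018G15Rik shares 1433 exon bases with Cacnb4 on the opposite strand, the most of any gene overlapping a member, so its value is uncertain to that extent.

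Cacnb2, which encodes the main beta subunit of heart muscle, was the lowest of its class. It had 13.35, 13.6 and 14.5 TPM in KO replicates 1, 2 and 3 and 14.0, 14.6 and 14.8 TPM in WT replicates 1, 2 and 3. The groups overlapped, and the gene did not pass (log2 fold change -0.06 ± 0.06 SE, 95% interval -0.19 to 0.07, limma adjusted p = 0.54). Its value is uncertain where Gm10849, Gm13269 and Gm10848, on the opposite strand, share 618, 239 and 111 exon bases with it. Beta transcripts together came to 240.3 ± 5.88 TPM in KO and 253.5 ± 1.02 TPM in WT (SD, n = 3 each), 94.8% of WT. Their makeup was close in both groups: Cacnb3 held 49.3% to 51.7% in KO and 48.1% to 49.4% in WT, Cacnb1 28.8% to 30.4% in KO and 30.8% to 31.5% in WT. Alpha2delta and beta transcripts stood at a ratio of 0.979 ± 0.043 in KO and 1.12 ± 0.0095 in WT (SD, n = 3 each).

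Ordered by mean level in TPM, Cacnb3 came first in KO, followed by Cacna2d1, Cacna2d3, Cacnb1, Cacnb4, Cacna2d2, Cacnb2 and Cacna2d4. In WT the order was Cacna2d1, Cacnb3, Cacna2d3 and Cacnb1, and the same 4 genes followed in the same order. The libraries of neighbouring genes in these orders overlapped in 1 case, Cacna2d1 and Cacna2d3 in KO.

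**Figure D3:**
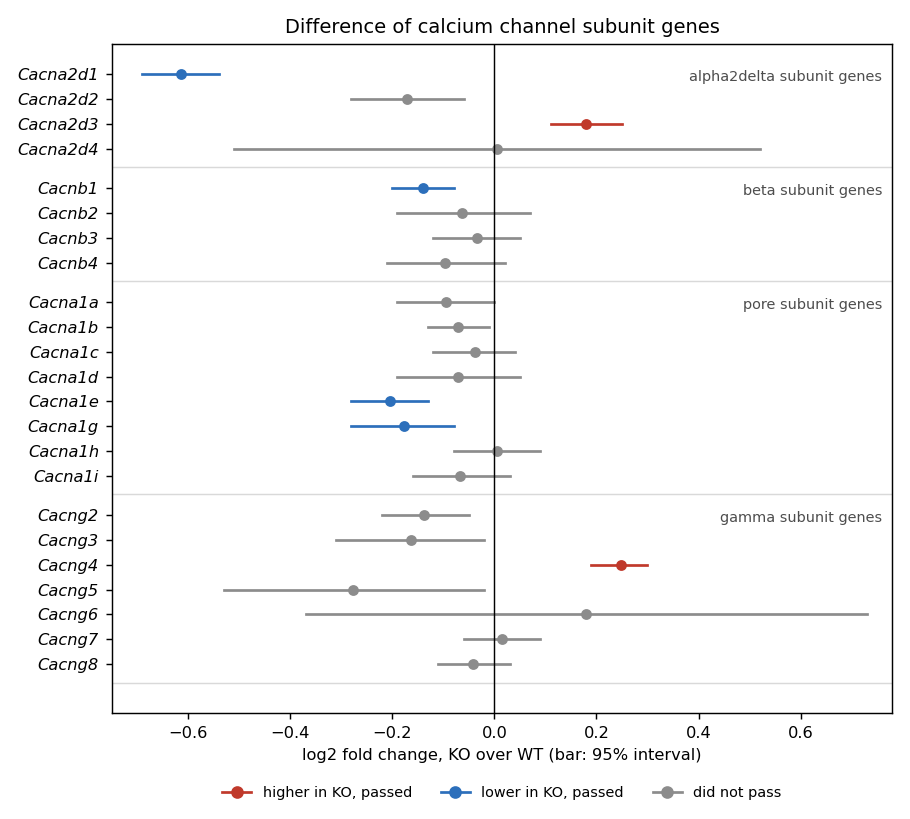
Points are log2 fold changes of KO over WT and bars their 95% intervals from limma, for the 8 alpha2delta and beta genes and the tested pore and gamma subunit genes; red passed higher in KO, blue passed lower, grey did not pass. Cacna2d1, at -0.61, is the lowest of the points shown, and Cacng4, at 0.25, the highest.

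The channel's pore subunits gave a frame for these values. Of all tested genes 4.15% were higher and 6.74% lower in KO, which is the background for each list count below. Of 10 pore genes 8 were tested, and 2 were lower, none higher and 6 did not pass, with a median log2 fold change of -0.07 beside -0.02 over all tested genes. Cacna1e, the pore of R-type channels, had 93.5, 87.5 and 89.9 TPM in KO replicates 1, 2 and 3 and 103.2, 102.8 and 106.3 TPM in WT replicates 1, 2 and 3 (log2 fold change -0.20 ± 0.03 SE, limma adjusted p = 0.0071). Cacna1g, the pore of a T-type channel, stood at 88.2% of WT (adjusted p = 0.037), a call lost in 5 of the 6 fits that left out 1 library, all but that without WT replicate 3, at adjusted p up to 0.109. Of the 9 other alternatives it passed in 5. The call was lost after median centring (limma adjusted p = 0.0645), quantile normalization (0.0674), without the variance trend (0.0558) and with the replicate block (0.0877). Cacna1a and Cacna1b, the pores of the P/Q-type and N-type channels of presynaptic terminals, were at 93.7% and 95.2% of WT and did not pass (adjusted p = 0.19 and 0.14). Per unit of summed pore transcript, Cacna2d1 was at a ratio of 0.266 to 0.286 in KO and 0.392 to 0.404 in WT.

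Gamma subunits of the Cacng genes include the proteins that escort AMPA receptors. Of 8 such genes 7 were tested and 1, Cacng4, passed: it was higher, at 162.1 ± 1.69 TPM in KO and 136.4 ± 2.31 TPM in WT (SD, n = 3 each; log2 fold change 0.25 ± 0.02 SE, limma adjusted p = 0.0011). None of them was lower by this fit, while 3 were by voom and 1 with the filter at 2 TPM, without KO replicate 1 or without WT replicate 2. The median of the gamma genes was -0.04. None of the 3 tested RGK GTPase genes, whose products bind beta subunits and inhibit channels, passed, with a median of -0.13. Rrad (0.493 TPM in KO, 0.949 TPM in WT) and Gem (1.92 TPM in KO, 2.15 TPM in WT) were low and lower by value in KO. Rem2, the most abundant of the 3, went the other way. It had 19.95, 17.6 and 19.6 TPM in KO replicates 1, 2 and 3 and 15.6, 17.3 and 17.1 TPM in WT replicates 1, 2 and 3 (limma adjusted p = 0.11).

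Of 10 genes for proteins reported to bind alpha2delta subunits, 8 were tested, and 3 were lower (0 without the variance trend, without KO replicate 3 or without WT replicate 3), none higher and 5 did not pass, at a median log2 fold change of -0.01. Thbs1 and Thbs3, which encode secreted thrombospondins, were at 70.9% and 69.7% of WT (limma adjusted p = 0.039 and 0.031). Thbs2, at a low 0.859 TPM in KO and 0.674 TPM in WT, was higher by value and did not pass (limma adjusted p = 0.59). Nrxn3, a presynaptic adhesion gene, was at 87.9% (adjusted p = 0.021). Leaving out 1 library ended the call of Thbs1 in 5, of Thbs3 in 4 and of Nrxn3 in 4 of 6 fits, at adjusted p up to 0.117, 0.0959 and 0.0706. Of the 9 other alternatives, 3 ended the call of Thbs1, 2 that of Thbs3 and 2 that of Nrxn3. Lrp1, Nrxn2 and Prnp were at 98.2%, 101.0% and 100.4% of WT, and none of these passed. Of 16 scaffolds and regulators of the channel all were tested, 4 were lower and none higher (1 higher by voom), with a median of -0.07. Rimbp2 and Bzrap1 (now Tspoap1), whose products tether channels at the active zone, were at 82.9% and 81.5% of WT (adjusted p = 0.0041 and 0.0057), each passing in all 15 alternatives. Stac2, an adaptor of L-type channels, was at 67.5% (adjusted p = 0.042). Its call was lost in 5 of the 6 fits that left out 1 library and in 4 of the 9 other alternatives.

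The 5 genes most like Cacna2d1 were found across the 6 libraries, by the root mean square difference of log2 values after subtracting each gene's WT mean, among 11098 other genes that averaged 5 TPM or more. Sorbs2, an actin-linked adaptor, was nearest at a difference of 0.0469, with 67.2 ± 1.04 TPM in KO and 99.5 ± 0.895 TPM in WT (SD, n = 3 each). Extl1, an exostosin-like glycosyltransferase, Crym, a thyroid hormone binding protein of neurons, Fam107a and the guidance ligand Slit3 followed at 0.0541, 0.0544, 0.0584 and 0.0588. Their KO levels lay between 63.9% and 67.6% of WT, beside 65.2% for Cacna2d1. The measure takes in the difference between groups, so a gene with a like fold and a small spread ranks high.

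Markers of cell types differed between the groups as well, where 4.15% of all tested genes were higher and 6.74% lower in KO. Of the 7 excitatory markers 5 were lower and none higher (1 higher after median centring or without WT replicate 2), with Slc17a7 at 56.0%, Camk2a at 75.1% and Neurod6 at 107.6% of WT, the last of which did not pass. Of the 10 interneuron markers 8 were lower and 1, Dlx1, higher (2 higher after median centring or quantile normalization). The 8 lower became 7 on leaving out any library but KO replicate 1. The 8 markers of astrocytes and radial glia summed to 4241 to 4411 TPM in KO and 3942 to 4129 TPM in WT. Of these, 2 were higher (Slc1a3 and Fabp7), 1 was lower (Aldh1l1) and 5 did not pass, at a median log2 fold change of -0.05. Fabp7 alone, at 2743 TPM in KO and 2509 TPM in WT, made up most of the sum. Gfap was at 75.6% and Aqp4 at 88.2% of WT, and neither passed. The 2 higher became 1 under quantile normalization and on leaving out any library but WT replicate 3. Of 8 genes of the oligodendrocyte lineage 7 were tested and 2 were lower, a count that fell to 0 without KO replicate 1, KO replicate 2, WT replicate 1 or WT replicate 3 and to 1 without either of the other libraries. Their sum was 653 to 679.9 TPM in KO and 651 to 689 TPM in WT. The 5 markers of meningeal fibroblasts summed to 45.1 to 57.6 TPM in KO and 35.2 to 36.3 TPM in WT, with 3 higher. That count was 5 under quantile normalization and 4 after median centring or without KO replicate 2. It was 2 on leaving out any other library. Microglial markers were low (1.63 to 3.78 TPM in KO, 1.24 to 1.87 TPM in WT), and the 1 tested of 6 did not pass. Markers of endothelial cells and pericytes summed to 10.3 to 12.6 TPM in KO and 8.99 to 10.0 TPM in WT, and the 4 tested of 6 did not pass. No marker of any list was at 0 in all 6 libraries. What part these shifts have in the values of Cacna2d1, Cacna2d3 or Cacnb1 was not tested.

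**Figure D4:**
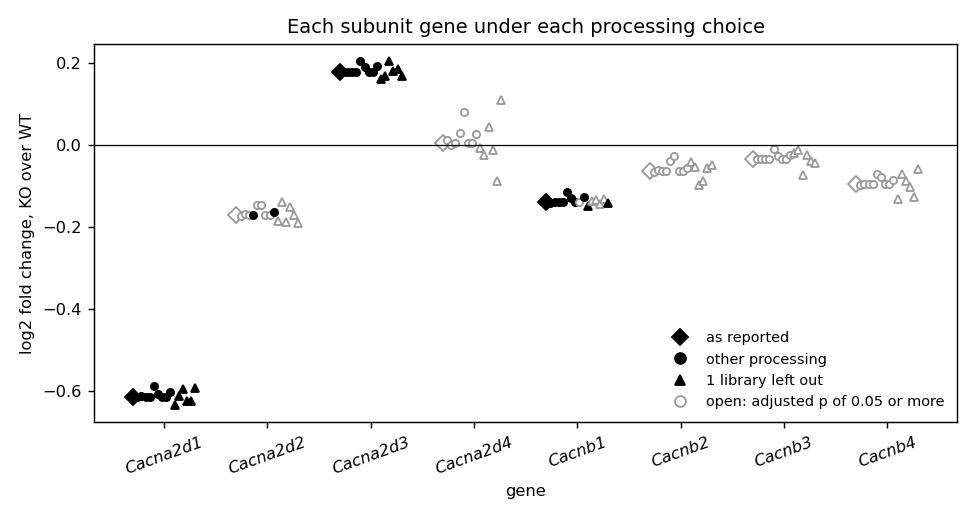
Log2 fold change of KO over WT for each gene as reported (diamond), under other processing (circles) and with 1 library left out (triangles); filled symbols have a limma adjusted p below 0.05 and open ones do not. Cacna2d1 and Cacna2d3 are filled throughout, at -0.63 to -0.59 and 0.16 to 0.21, and Cacnb1 and Cacna2d2 are filled in part.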

How the data were processed

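mRNA was measured in 3 KO and 3 WT libraries. The deposited values are TPM, 1 column per library: all columns total 1000000, although the authors' name for the table says FPKM. The tools listed in the submitters' processing notes, with neither role nor order, are edgeR, featureCounts, Picard 1.127, TopHat, FastQC 0.11.2 and bcl2fastq 2.17, and the build is mm10. The annotation and strand setting behind the counting are not stated there.

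The values of all 19369 entries above 0 were turned back into whole counts (100% within 0.001 counts plus 5e-09 of the value), up to a factor shared by a gene's length and its 6 counts, so totals are lower bounds. KO was compared with WT by limma 3.58.1 in R 4.3.3 on log2 of TPM plus 0.5, for genes averaging 0.5 TPM or more, with a variance trend, no covariates and Benjamini-Hochberg adjustment over all 14983 tested genes. The pseudocount makes the fold changes of low genes too small. The fit and the recovery were tested on simulated data. Alternatives were pseudocounts of 0.1 and 1, no filter, a filter at 2 TPM, median centring, quantile normalization, no trend, replicate number as a block, limma voom on recovered counts, and leaving out each library. Named genes are Kdm6b, the 8 members, Benjamini-Hochberg calls in fixed lists of partners (at most 6 a list) and the 5 genes most like Cacna2d1 in pattern; other members of the lists, genes overlapping a member and Y-linked genes are given as values. Some members of the partner lists are not reported here by name. Members and lists were chosen with earlier results of these data known. Gene positions are those of GENCODE M21 (GRCm38, the build that mm10 names) and promoters from RefSeq.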

Additional observations from a re-analysis of the deposited data

How the results depend on the processing

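Cacna2d1 and Cacna2d3 kept their direction and stayed past the threshold in all 15 alternatives, at log2 fold changes of -0.63 to -0.59 and 0.16 to 0.21. For Cacna2d3 the limma adjusted p came near the threshold, at 0.0476 without the variance trend and 0.0447 without KO replicate 2. For Cacna2d1 it was at most 0.00417. The count of members lower in KO, 2 as reported, was 1 with the replicate block and lay between 1 and 2 when 1 library was left out, because Cacnb1 crossed the threshold. It was 3 with the filter at 2 TPM and with voom, where Cacna2d2 passed too. The count of members higher was 1 throughout. Cacna2d4, on few counts, had a log2 fold change of 0.00 as reported, -0.0067 without KO replicate 1, -0.0251 without KO replicate 2, -0.0119 without WT replicate 1 and -0.0865 without WT replicate 2. Its highest value, 0.11, came from leaving out WT replicate 3. Over all genes 622 were higher and 1010 lower as reported, 406 and 658 without the variance trend, 360 and 585 with the replicate block, and 1183 and 1432 with voom. Leaving out 1 library gave 355 to 454 higher and 531 to 698 lower. Same-numbered KO and WT libraries did not deviate together (correlations of 0.0077, -0.0511 and 0.011 for numbers 1, 2 and 3). The labels do not say whether equal replicate numbers pair the samples. With the replicate block Cacnb1 had a limma adjusted p of 0.0595. On recovered counts not divided by gene length, the KO minus WT difference in share was -10.7 percentage points for Cacna2d1, 1.26 for Cacna2d2 and 9.41 for Cacna2d3, beside -12.5, 0.605 and 11.9 on TPM. The difference for Cacna2d2 was 0.359 without KO replicate 3 and 0.82 without KO replicate 2. Cacna2d4 could not be fitted with the filter at 2 TPM, since its mean was lower. Of the 8 genes, depth limits Cacna2d4 the most, at 19 to 34 counts per library.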
